A study of Mus musculus with 14 samples.

Results

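The blood-brain barrier genes described here are 9 transporters and 1 tight junction gene: Slc2a1, Slc16a1, Slc7a5, Slc38a5, Slco1a4, Slco1c1, Mfsd2a, Abcb1a, Abcg2 and Cldn5. They were fixed by name, with earlier results of these data known, and are 10 of 21568 gene symbols in 14 Drop-seq count tables. Drop-seq captures single cells in droplets with barcoded beads and counts RNA molecules by their unique molecular identifiers (UMIs), read near the 3' end of the transcript. Each table came from tissue punches of the lateral hypothalamic area of 1 male wildtype C57BL/6J mouse. The mice had free access to food, on a reversed light cycle, and fell into 2 groups: 7 fed a control chow matched for taste and 7 fed a high fat diet. Libraries were sequenced in 2 pools on separate lanes, 4 control and 4 high fat diet mice in pool 1, and 3 and 3 in pool 2. Neither the age of the mice nor the time on the diet is given in the sources used here. The comparisons below ask in which cell types the 10 genes were read, and whether their endothelial level differed between the diets.

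The blood-brain barrier is formed by brain endothelial cells, which are sealed by tight junctions and take up little by vesicles, so that nutrients must enter through carriers in the cell membrane. Efflux pumps on the blood side return many lipophilic compounds to the blood. Mural cells (pericytes and smooth muscle) wrap the endothelium, and astrocyte endfeet cover both. The hypothalamus reads glucose, lipids and hormones from the blood.

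Of 28410 barcodes, 15378 passed the limits of 500 UMIs, 300 genes and 20% mitochondrial UMIs, between 49 and 1779 per mouse. The tables summed to between 147470 and 5611524 UMIs. A barcode was given a class where it held at least 3 UMIs from at least 2 markers of 1 marker list alone, at a share above that of its mouse, and no marker list held any of the 10 genes. This gave 306 endothelial barcodes with at most 1 UMI of Snap25 and Syt1 (316530 UMIs, median 750 a barcode), 148 mural barcodes (123451 UMIs, median 720.5), 909 astrocytes (687115 UMIs, median 673), 469 oligodendrocyte precursors (OPC; 597828 UMIs, median 1164), 6071 oligodendrocytes, 459 microglia and 5057 neurons (median 3624). A further 196 barcodes passed the endothelial and the mural list together and were kept apart. All 23 endothelial markers in the tables were detected in the endothelial barcodes and summed to between 30706 and 40181 CPM (a gene's UMIs per 1000000 UMIs of the sum) in the 11 mice with at least 10 such barcodes. In mural barcodes the same list summed to 842 CPM, with Pecam1, Cdh5, Kdr, Tek and Tie1 at 0. The mural list summed to 995 CPM in endothelial barcodes (8 of 18 markers detected; Kcnj8, Abcc9, Notch3 and Des at 0) against 45986 CPM in mural barcodes. Of the kept barcodes, 3 sequences occurred in more than 1 table, where 6.4 such pairs would arise from random barcodes. Control mice 1 and 2 and high fat diet mouse 1 stood apart from the other 11: over 1749 genes in oligodendrocyte sums, centred log levels of the 3 correlated at 0.67 to 0.70 with each other, and between -0.39 and -0.17 with those of the other mice. The other 11 were no uniform set: their correlations with the 11 ran from -0.11 (control mouse 6) to 0.14 (high fat diet mouse 2).

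Sums of raw UMIs per mouse and class were compared with edgeR's quasi-likelihood test, with the mouse as a block and p-values adjusted by Benjamini-Hochberg over all genes. All 10 genes were higher in endothelial than in mural barcodes, by 4.18 (Abcg2) to 10.31 (Cldn5) on the log2 scale, with adjusted p-values of 2.2e-06 or lower. The mural sums that entered the fit held 0 UMIs of Cldn5, Slc16a1, Slc38a5, Mfsd2a and Slc7a5, so their fitted sizes are not measured ratios. Of 11398 genes tested, 13.6% passed the test and 9.55% were higher in endothelial barcodes. The passing genes split into 1089 higher and 458 lower, and into 660 and 642 where library size replaced TMM scaling. The limit of 20 UMIs for testing ran over the sums of all classes in the fit together. Genes with few endothelial or mural UMIs were therefore tested too, which lowers these shares. With edgeR's own filter on low counts, 554 of 1577 genes passed, 350 higher and 204 lower in endothelial barcodes. Slc38a5 did not pass under DESeq2 (4.19, adjusted p = 0.37), the single call among the 10 that was lost over the alternatives tried. The median endothelial barcode held UMIs of 5 of the 10 genes, and 85.9% held at least 4. Only 12.8% of mural barcodes held a UMI of any of them. In the barcodes that passed both lists the median was again 5. The single mural barcode of control mouse 6 (533 UMIs), too few for a sum that entered the fit, held 3 of the 5 mural UMIs of Slco1a4, 1 of the 3 of Abcb1a, 1 of the 8 of Slc2a1 and the only one each of Slc16a1, Cldn5 and Slc38a5. Without that mouse the endothelial to mural ratio of summed levels was 194 for Slco1a4 (78.1 with it), and 0 mural UMIs were left for Slc16a1 (at least 18.0-fold higher), Cldn5 (at least 58.8-fold) and Slc38a5 (at least 12.7-fold).

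**Figure D1:**
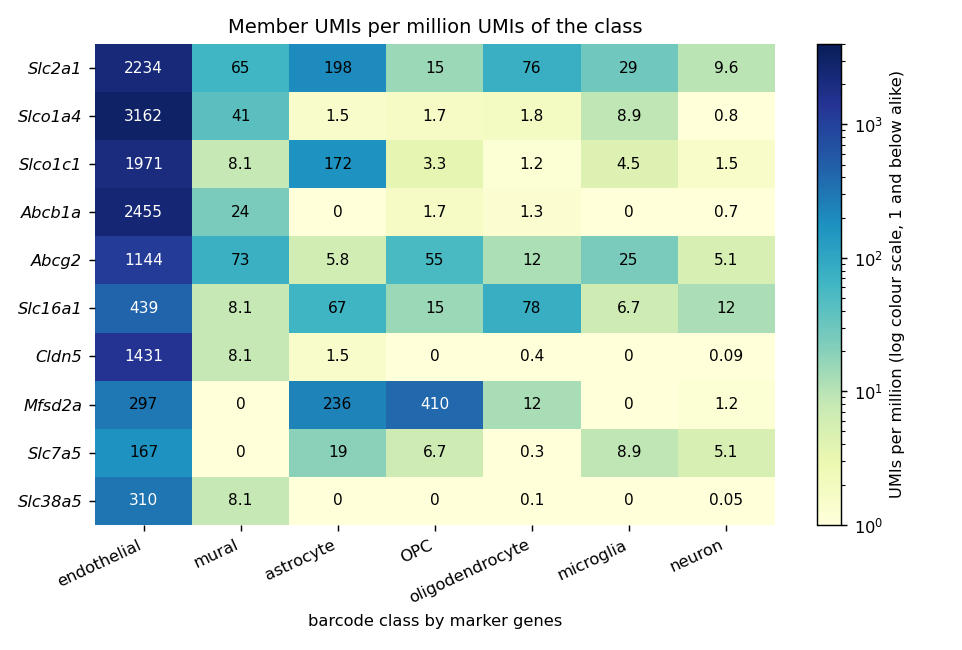
Level of each of the 10 genes (rows) in 7 barcode classes (columns), as CPM over all mice; the colour scale is logarithmic. The endothelial column holds the highest level of 9 genes, while Mfsd2a is highest in OPC (410 CPM) and is also read in endothelial barcodes (297) and astrocytes (236).

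Slc2a1 encodes GLUT1, the glucose carrier of the barrier, on chromosome 4 (119108711 to 119137983, plus strand, GRCm38). Its endothelial level was lowest at 1138 CPM, had its median at 1555 and reached 4316 over 11 mice. Astrocytes of 12 mice held between 116 and 530 CPM (median 172), so that the mouse ranges did not overlap. Oligodendrocytes held 75.9 CPM over all mice and mural barcodes 64.8 (8 UMIs). The endothelial level was 34.5 times the mural level (95% counting interval 17.4 to 80.1; 50.6 times without control mouse 2, which held 3 of the 8 UMIs) and 11.3 times the astrocyte level (9.38 to 13.7). In the fit the difference from astrocytes was 2.79 ± 0.18 (SE) on the log2 scale, with an adjusted p of 1.3e-51. Thinned to 500 UMIs each, 61.8% of endothelial barcodes held an Slc2a1 UMI, against 9.46% of astrocytes, 3.89% of oligodendrocytes (median 1094 UMIs before thinning), 2.7% of mural barcodes and 0.455% of neurons. Without thinning the shares were 76.5% in endothelial barcodes and 3.98% in neurons. The antisense genes Gm12867 and Gm12868 overlap Slc2a1 and had 4 and 1 UMIs, and whether counting used the strand is not given in the sources used here.

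Slc16a1 (chromosome 3, 104638668 to 104658462, plus strand) encodes MCT1, which carries lactate and ketone bodies. Endothelial sums ranged from 107 to 2009 CPM (median 378, 139 UMIs). Oligodendrocytes, in which MCT1 exports lactate to axons, ranged from 25.4 to 124 CPM (median 87.4) over 14 mice, and astrocytes from 0 to 110 (median 55.6). The endothelial range overlapped that of oligodendrocytes. In the fit, the endothelial level exceeded the oligodendrocyte level by 1.35 ± 0.20 (SE; adjusted p = 2.3e-10). It also exceeded the astrocyte level in the fit (adjusted p = 5.1e-14), with summed levels 6.56 times as high. Oligodendrocytes, the class with the most barcodes, held 48.7% of all Slc16a1 UMIs in kept barcodes and endothelial barcodes 11.2%. Mural barcodes held 1 UMI, from control mouse 6, an endothelial to mural ratio of 54.2 with a wide counting interval (9.57 to 2160).

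Both amino acid carriers had low counts. Slc7a5 (LAT1, the carrier of large neutral amino acids, which pairs with the Slc3a2 heavy chain) had 53 endothelial UMIs, with a level of 0 in 2 of 11 mice, a median of 97.2 CPM and a maximum of 305. No Slc7a5 UMI was read in mural barcodes, which puts the endothelial level at least 6.89-fold higher, taking 3 UMIs over the class as the limit. Neurons held 44.3% of Slc7a5 UMIs at a level of 5.09 CPM, and endothelial barcodes 20.8%. Against astrocytes (18.9 CPM) the endothelial level of Slc7a5 was higher by 2.31 ± 0.45 on the log2 scale (adjusted p = 2.2e-06). Slc38a5, a glutamine and small neutral amino acid carrier on the X chromosome, had 98 endothelial UMIs, between 81.5 and 719 CPM (median 229), and was read in all 11 mice. Outside vessels it was close to absent from the counts, with 0 UMIs in astrocytes, OPC and microglia and 1 each in mural barcodes, oligodendrocytes and neurons. Its endothelial level was at least 70.9-fold higher than that of astrocytes.

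The organic anion transporters Slco1a4, which carries bile acids and steroid conjugates, and Slco1c1, which carries thyroxine, lie on the same stretch of chromosome 6 (141805440 to 141856199, minus strand, and 141524368 to 141570177, plus strand). Endothelial Slco1a4 ranged from 1956 to 4860 CPM (median 3153, 1001 UMIs) and Slco1c1 from 1069 to 3354 (median 2092, 624 UMIs). They parted in astrocytes. Slco1c1 was read there in all 12 mice, between 38.8 and 304 CPM (median 136, 118 UMIs), and Slco1a4 gave 1 UMI in 909 astrocytes. Mural barcodes held 5 UMIs of Slco1a4, 2 of them outside control mouse 6, and 1 of Slco1c1, from control mouse 2. Endothelial over astrocyte ratios were 11.5 for Slco1c1 (counting interval 9.42 to 14.1), and the fitted difference was 3.05 ± 0.18 (SE) against 9.89 ± 0.36 for Slco1a4. Slco1c1 was higher in astrocytes than in oligodendrocytes by 5.98 ± 0.33 (adjusted p = 1.9e-71), where 52.4% of genes passed (20.5% higher in astrocytes and 31.9% lower). Slco1a5, a close relative of Slco1a4, had 0 UMIs in endothelial barcodes. The 250 bases before the RefSeq start (table of build GRCm38.p6, which matched 9 of the 10 genes) are shown for these neighbours, and for Slc16a1, because the first pair were read mainly in vessels and Slc16a1 in several classes. Capitals mark matches on either strand to CTTTGAT (TCF/LEF), ACAATG (SOX), CCGGAAG (ETS), CACGTG (E-box) or GGGCGG (GC box).
Slco1a4, chr6:141856221-141856470, minus strand: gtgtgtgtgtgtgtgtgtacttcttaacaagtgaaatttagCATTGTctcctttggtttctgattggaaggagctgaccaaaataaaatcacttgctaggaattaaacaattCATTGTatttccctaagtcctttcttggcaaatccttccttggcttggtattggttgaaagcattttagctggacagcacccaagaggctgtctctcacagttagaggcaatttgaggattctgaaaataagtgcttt
Slco1c1, chr6:141524104-141524353, plus strand: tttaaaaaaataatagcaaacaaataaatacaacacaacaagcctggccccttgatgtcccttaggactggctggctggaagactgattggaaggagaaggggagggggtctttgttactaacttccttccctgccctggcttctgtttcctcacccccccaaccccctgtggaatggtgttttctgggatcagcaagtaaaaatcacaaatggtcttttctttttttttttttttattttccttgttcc
Slc16a1, chr3:104638414-104638663, plus strand: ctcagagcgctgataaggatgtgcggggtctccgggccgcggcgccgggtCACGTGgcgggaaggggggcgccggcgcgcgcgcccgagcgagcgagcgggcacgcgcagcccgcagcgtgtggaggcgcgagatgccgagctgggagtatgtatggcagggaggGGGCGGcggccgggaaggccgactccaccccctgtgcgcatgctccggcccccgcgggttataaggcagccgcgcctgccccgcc
Slco1a4 held 2 SOX matches and Slco1c1 none of the 5 motifs, with 39.2% and 42.8% G and C. The Slc16a1 window held 1 E-box and 1 GC box, with 76.4% G and C. Of 32851 promoters of the same length, 3.21% hold the TCF/LEF letters, 10.7% the SOX, 6.91% the ETS, 6.02% the E-box and 32.7% the GC box letters.

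Mfsd2a encodes the carrier of lysophosphatidylcholine with docosahexaenoic acid, and in brain endothelium it is known to keep vesicle transport low. Its endothelial level ranged from 131 to 479 CPM (median 304, 94 UMIs), and mural barcodes held 0 UMIs, an endothelial level at least 12.2-fold higher. Mfsd2a was also read in every one of 12 astrocyte sums, between 140 and 428 CPM (median 182, 162 UMIs). OPC held the most, between 221 and 719 CPM in 11 mice (median 377, 245 UMIs), and oligodendrocytes between 6.92 and 87.9 (median 11.6). The OPC, endothelial and astrocyte ranges overlapped, and no mural or microglial UMI was read. OPC held 31.9% of the Mfsd2a UMIs in kept barcodes, astrocytes 21.1% and endothelial barcodes 12.2%.

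In the fit, Mfsd2a in endothelial barcodes did not differ detectably from astrocytes (-0.07 ± 0.24 SE, adjusted p = 0.857; 0.39 with library size scaling), the single one of the 10 genes that was not higher in endothelial barcodes. Of all genes, 39.0% passed that test and 12.6% were higher in endothelial barcodes (1435 higher and 3015 lower, or 2054 and 2051 with library size scaling). With edgeR's own filter on low counts, 594 of 1577 genes were higher and 567 lower. Against oligodendrocytes, Mfsd2a was higher in OPC by 4.18 ± 0.21 (adjusted p = 6.7e-90) and in astrocytes by 3.56 ± 0.24 (adjusted p = 6.8e-49). In the comparison of OPC with oligodendrocytes 47.0% of genes passed, and 21.7% were higher in OPC (2574 higher and 3001 lower, or 5400 and 1226 with library size scaling). OPC exceeded astrocytes by 0.55 ± 0.19 (adjusted p = 0.017, background 28.8%, 1820 higher and 1596 lower, or 2912 and 1238 with library size scaling), a call lost without control mouse 3 (adjusted p = 0.0981) and with a stricter gate of 5 UMIs from 3 markers (adjusted p = 0.101). OPC and endothelial barcodes differed by 0.45 ± 0.22, which did not pass (adjusted p = 0.0993), whereas 11 of 22 alternatives did, with differences between 0.28 and 0.80. The other 9 genes were lower in OPC than in endothelial barcodes (background 35.6%, 12.5% lower). Thinned to 500 UMIs, 17.3% of OPC, 14.4% of endothelial barcodes and 11.6% of astrocytes held an Mfsd2a UMI, against 0.593% of oligodendrocytes and 0.119% of neurons. Unthinned, the shares were 37.3%, 22.2%, 16% and 1.48%, with 0.514% of neurons.

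**Figure D2:**
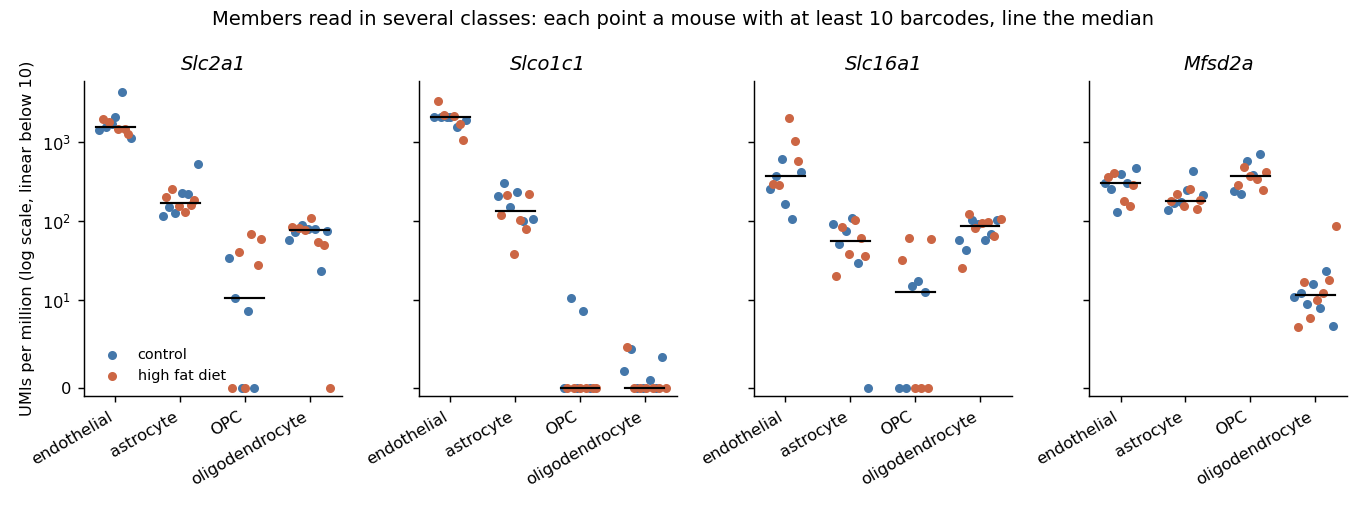
Levels of Slc2a1, Slco1c1, Slc16a1 and Mfsd2a (CPM, logarithmic above 10 and linear below) in 4 classes, with a point for each mouse with at least 10 barcodes and a line at the median. Slc2a1 and Slco1c1 lie highest in endothelial barcodes with astrocytes next; Mfsd2a overlaps between endothelial barcodes, astrocytes and OPC; and Slc16a1 overlaps between astrocytes and oligodendrocytes.

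Of the 2 efflux pumps, Abcb1a was read mostly in vessels and Abcg2 more widely. Abcb1a (chromosome 5), P-glycoprotein, ranged from 875 to 3746 CPM in endothelial sums (median 2228, 777 UMIs) and had 3 UMIs in mural barcodes and 0 in 909 astrocytes, so that its level was at least 562-fold higher than in astrocytes. Its close relative Abcb1b had 1 endothelial UMI. Endothelial barcodes held 57.5% of the Abcb1a UMIs and barcodes of both vessel lists 33.2%. Abcg2 (chromosome 6), the breast cancer resistance protein, ranged from 486 to 1617 CPM (median 891, 362 UMIs). Endothelial barcodes held 41.1% of its UMIs, barcodes of both vessel lists 19.1%, neurons 12.8%, oligodendrocytes 10.2% and OPC 3.75%. These shares follow the size of each class. Summed Abcg2 levels were 5.09 CPM in neurons and 11.6 in oligodendrocytes, against 1144 in endothelial barcodes. Mural barcodes held 9 Abcg2 UMIs, an endothelial to mural ratio of 15.7 (counting interval 8.17 to 34.6), the smallest among the genes with a mural UMI. OPC held 33 Abcg2 UMIs, at 0 to 103 CPM (median 60.8), higher than oligodendrocytes by 1.33 ± 0.34 (adjusted p = 0.000336) and than astrocytes by 2.69 ± 0.61 (adjusted p = 7.9e-05). Astrocytes held 4 Abcg2 UMIs. They were lower than oligodendrocytes by -1.46 ± 0.62 (adjusted p = 0.0377), a call that 13 of 23 alternatives lost.

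Cldn5 (chromosome 16, 18776847 to 18778262) encodes claudin-5, the main claudin of brain endothelial tight junctions. It was read at 299 to 2527 CPM in endothelial sums (median 1552, 453 UMIs). Elsewhere it had 1 UMI in mural barcodes, 1 in astrocytes, 0 in OPC and microglia, 3 in oligodendrocytes and 2 in neurons. Endothelial barcodes held 57.7% of all Cldn5 UMIs and the barcodes of both vessel lists 33.2%. The Cldn5 sums fell into 2 sets of mice. Control mice 1 and 2 and high fat diet mouse 1, which stood apart in oligodendrocytes, held 405, 504 and 299 CPM (25 UMIs), and the other 8 mice between 1144 and 2527 CPM. The sets did not overlap, as was the case for 2.52% of 3288 genes in endothelial sums (1.61% lower in the 3 mice). None of the other 9 genes separated these mice in endothelial sums. In oligodendrocytes Slc16a1 ran between 25.4 and 57.0 CPM in the 3 mice and between 57.2 and 124 in the other 11, a separation seen for 4.96% of 10061 genes (3.97% lower in the 3). The part of these mice in the diet values was measured by leaving them out, as given below.

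Every one of the 10 genes was higher in endothelial barcodes than in oligodendrocytes, from 1.35 (Slc16a1) to 9.38 (Cldn5) on the log2 scale. Of all genes, 51.9% passed and 12.4% were higher (1410 higher and 4505 lower, or 2729 and 1541 with library size scaling). With edgeR's own filter on low counts, 535 of 1577 genes were higher and 631 lower. Between astrocytes and oligodendrocytes, 2342 genes were higher in astrocytes and 3631 lower (3704 and 2000 with library size scaling). Slc2a1 (0.69 ± 0.19, adjusted p = 0.000954), Slc7a5 (4.11 ± 0.61, 13 astrocyte and 2 oligodendrocyte UMIs, adjusted p = 1.5e-10), Slco1c1 and Mfsd2a were higher in astrocytes. Slc16a1 was lower there by -0.83 ± 0.25 (adjusted p = 0.00251), a call lost with DESeq2 (-0.13), with its size factors in edgeR (-0.05), with library size scaling (-0.22) and with edgeR's own filter on low counts (-0.34). Relative to oligodendrocytes, mural barcodes were lower in Slc16a1 (-7.27 ± 1.21, adjusted p = 2.3e-08). The mural sums in that fit held 0 Slc16a1 UMIs, so the size is not a measured ratio (8.10 against 78.1 CPM over all mice). Mural barcodes were also lower in Slc2a1 (-1.69 ± 0.49, adjusted p = 0.00238). That call was lost in 5 of 23 alternatives, at -0.07 with library size scaling (adjusted p = 0.948) and -0.50 with DESeq2 size factors. Mfsd2a was lower too (0 mural UMIs, adjusted p = 0.035), a call lost in 15 of 23. Between mural barcodes and oligodendrocytes 42.3% of genes passed and 35.0% were lower (839 higher and 3986 lower, or 1544 and 801 with library size scaling). The median over all genes in that comparison was -1.37, and library size scaling moved it by 1.40. OPC were lower than oligodendrocytes in Slc2a1 (-3.14 ± 0.36, adjusted p = 1.3e-17) and Slc16a1 (-3.06 ± 0.36, adjusted p = 3.1e-16), and higher in Slc7a5 (2.24 ± 0.71, 4 UMIs, adjusted p = 0.00561).

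Other barrier genes were counted on lists fixed by name, beside 9.55% of all genes higher and 4.02% lower in endothelial than in mural barcodes (1089 and 458 genes, or 660 and 642 with library size scaling). With edgeR's own filter on low counts, 350 of 1577 genes were higher and 204 lower. The lists were not counted under that filter. Of 11 junction genes tested, 8 were higher in endothelial than in mural barcodes and 1 lower. Their median was 2.79 on the log2 scale against 0.45 over all genes. That list also held the catenins Ctnnb1 and Ctnnd1, and Pard3. Jam3 read 9.48 CPM in endothelial and 235 CPM in mural barcodes. The higher junction genes included Lsr (6.10 ± 0.67), which encodes angulin-1 of tricellular junctions, Jam2 (5.48 ± 0.72) and Tjp1 (2.60 ± 0.37). Of 29 solute carriers and their partners, 15 were higher and 1 lower (median 3.37), among them Bsg (5.13 ± 0.24), the chaperone of MCT1, the taurine carrier Slc6a6 (5.70 ± 0.41), the zinc carrier Slc39a10 (5.80 ± 0.45) and Slc3a2 (3.37 ± 0.40), the partner of LAT1. Of 5 further ABC transporters, Abcc4 alone passed (7.09 ± 1.31). Receptors and vesicle genes split into 6 higher and 1 lower of 11, with Sdpr at 10.48 ± 0.71, the transferrin receptor Tfrc at 3.76 ± 0.39 and Cav1 at 1.84 ± 0.30. Of 11 Wnt and barrier regulators 8 were higher and 0 lower (median 3.04): Foxq1 stood at 9.01 ± 0.97 and Lef1 at 8.67 ± 1.02. Red cell genes, markers of another cell type, were higher in endothelial barcodes for 5 of 5. Their sum ranged from 0 to 40095 CPM over control mice (median 7.63) and from 0 to 5010 over high fat diet mice (median 0). Their part in the other differences was not tested. Against astrocytes, where 12.6% of all genes were higher and 26.5% lower with a median of -0.50, 5 of 11 junction genes were higher and 2 lower, 14 of 29 carriers higher and 6 lower, and 1 of 5 ABC transporters higher and 2 lower. Of 11 receptor and vesicle genes 7 were higher and 1 lower, and of 11 regulators 8 were higher and 0 lower. The shares of carriers and junction genes that were lower lie near or under that of all genes. Among the 1577 genes kept by edgeR's own filter, 594 were higher in endothelial barcodes than in astrocytes and 567 lower.

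Over 7 classes, and among 12461 genes, the gene whose log level ran closest to each of the 10 was named. Slc38a5, Abcb1a and Cldn5 ran closest to Gata2 or Adcy4 (Pearson's r over 7 class means between 0.998 and 1.000). Slco1a4 was nearest to Degs2 (0.997) and Slco1c1 to Fbln5 (0.988). Mfsd2a was nearest to Ccdc28b (0.980), Slc16a1 to Sft2d3 (0.966), Slc2a1 to Mtfr1 (0.971), Abcg2 to Slc52a2 (0.989) and Slc7a5 to Neurl2 (0.988). The 7 points share their libraries, and a gene read in 1 class gives a value near 1 with any other such gene.

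The diets were compared in endothelial sums of 6 control mice (1 to 5 and 7) and 5 high fat diet mice (1, 2, 4, 5 and 6), with the pool as a term. None of the 10 genes passed. Of 3288 genes tested with edgeR, 1 passed (0.0304%), DESeq2 called 0, and 141 (4.29%) had an unadjusted p under 0.05. The 10 genes had a median log2 difference of -0.32 (high fat diet minus control), against -0.11 over all genes.

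Slc16a1 had the smallest p-value of the 10. Control mice 1, 2, 3, 4, 5 and 7 held 253, 378, 610, 164, 107 and 419 CPM, a mean of 322 ± 185 (SD, n = 6). High fat diet mice 1, 2, 4, 5 and 6 held 299, 285, 2009, 1045 and 583 CPM, a mean of 844 ± 720 (SD, n = 5). High fat diet mice 4 and 5 lay above every control mouse, and the other 3 tested lay within the control range. These levels rest on 5, 9, 14, 10, 7 and 7 UMIs in the control mice and 5, 7, 22, 34 and 6 in the high fat diet mice, in the same order. A single barcode held up to 57.1% of a mouse's UMIs (control mouse 7). High fat diet mouse 3, with 9 barcodes, was under the limit of 10. It held 10 Slc16a1 UMIs, or 819 CPM without its largest barcode. The fitted difference was 1.60 ± 0.38 (SE, interval 0.85 to 2.36), 3.04-fold, with an unadjusted p of 7.9e-05 and an adjusted p of 0.086 in edgeR. Within pool 1 it was 1.30 and within pool 2 it was 2.24. It passed in 6 of 24 alternatives: with library size scaling (adjusted p = 0.0447), the stricter gate (0.00785), sums of at least 5 barcodes (0.00598), without the 3 mice that stood apart (1.99, adjusted p = 0.00175), without control mouse 3 (0.0407) and without high fat diet mouse 1 (2.12, adjusted p = 0.00143). Among the 18 that did not pass, the adjusted p was 0.942 with DESeq2 (1.75), 0.999 without the pool term (1.33), 0.907 without control mouse 5 (1.44), 0.995 without high fat diet mouse 4 (1.25), 0.67 without mouse 5 (1.26) and 0.508 with barcodes of both vessel lists (1.14).

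Endothelial Slc2a1 averaged 2034 ± 1161 CPM (SD, n = 6) under control chow and 1594 ± 286 under the high fat diet (n = 5), a fitted difference of -0.58 with an interval from -1.12 to -0.03 (unadjusted p = 0.0408, adjusted p = 1.000), and it turned positive in pool 1 alone (0.20). Control mouse 5 alone held 4316 CPM and the other control mice 1138 to 2078, while the high fat diet mice held 1263 to 1976. Slco1a4 averaged 3365 ± 808 and 2940 ± 772 CPM, and Slco1c1 1978 ± 204 and 2101 ± 840. Their differences were -0.30 (interval -0.80 to 0.20) and 0.03 (-0.49 to 0.55). Both ranges overlapped between the diets. Abcb1a averaged 2629 ± 686 and 1975 ± 750 CPM (-0.50, interval -1.03 to 0.03), and Abcg2 1159 ± 360 and 873 ± 441 (-0.54, interval -1.14 to 0.05). Mfsd2a averaged 311 ± 119 and 279 ± 110 CPM (-0.34, interval -1.15 to 0.47). Cldn5 averaged 1281 ± 715 and 1488 ± 791 CPM (-0.16, interval -0.97 to 0.65; 0.02 with library size scaling). Slc7a5 averaged 152 ± 118 and 80.3 ± 80.0 CPM (-1.14, interval -2.35 to 0.07), with a level of 0 in high fat diet mice 2 and 4. Slc38a5 averaged 309 ± 199 and 296 ± 268 CPM (-0.05, interval -0.90 to 0.80; 0.11 with library size scaling). The intervals of the 8 genes named after Slc2a1 all include 0, which does not show that their levels were alike. The mural list, summed in the same endothelial sums, ran from 810 to 1976 CPM in control and from 457 to 891 CPM in high fat diet mice, and its part in these values was not tested.

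**Figure D3:**
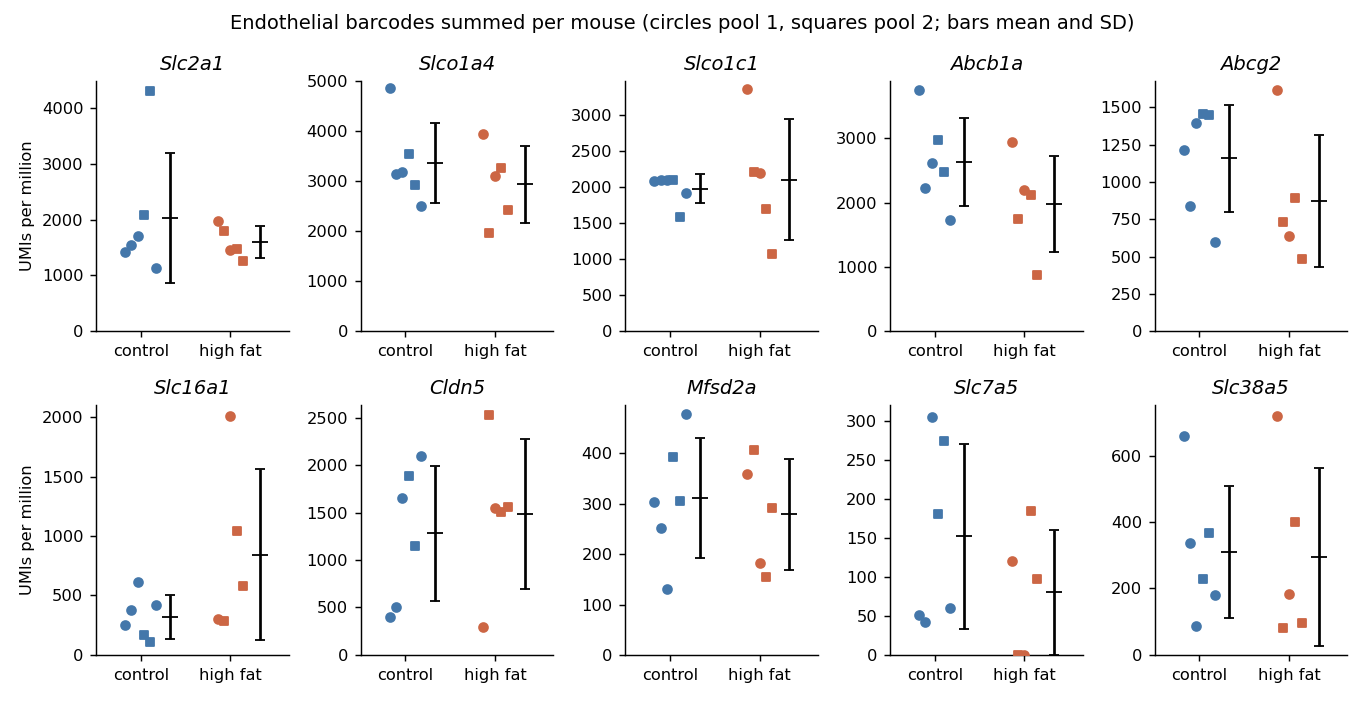
Endothelial level of each of the 10 genes (CPM, linear axes from 0) in control and high fat diet mice, with 1 point per mouse (circles pool 1, squares pool 2) and bars for mean and SD. Slc16a1 reaches 2009 and 1045 CPM in 2 high fat diet mice, above the highest control mouse (610); the diets overlap for all 10 genes.

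The single gene past the threshold was Atf3, a transcription factor induced by stress, which was lower in high fat diet mice by -2.24 ± 0.44 (adjusted p = 0.00489). Control sums ranged from 351 to 810 CPM (median 624) and high fat diet sums from 40.8 to 274, without overlap. The call was lost under DESeq2 (-2.15, adjusted p = 0.344), without control mouse 4 (-1.83, adjusted p = 0.18), without high fat diet mice 2 (-1.98, adjusted p = 0.0763) or 5 (-2.24, adjusted p = 0.0531), and in pool 1 (-1.77) and pool 2 (-2.42) alone. With barcodes of both vessel lists added, the difference was -1.24 (adjusted p = 0.40). Atf3 was also read in microglia (2027 CPM), and the microglial list summed in the endothelial sums to between 0 and 203 CPM in control and between 0 and 183 CPM in high fat diet mice. The mural list summed there to a median of 583 CPM under the high fat diet (457 to 891) and of 1243 CPM under control chow (810 to 1976). The part of either in the Atf3 value was not tested. On each of the wider barrier lists, 0 genes passed between the diets.

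In mural sums of 4 control and 3 high fat diet mice, 0 of 892 genes passed in edgeR (36 had an unadjusted p under 0.05, 4.04%), and none of the 10 genes had the 20 UMIs required for testing. In astrocyte sums of 6 and 6 mice, 0 of 5768 genes passed (199 unadjusted, 3.45%). Slc2a1 differed there by -0.18, Slco1c1 by -0.53, Slc16a1 by -0.19 and Mfsd2a by -0.42, each with an adjusted p of 0.997. In OPC, Mfsd2a averaged 428 ± 216 CPM (SD, n = 5) under control chow and 361 ± 87.0 under the high fat diet (n = 6), a difference of -0.37 ± 0.27 (SE, interval -0.89 to 0.15; 0.0159% of 6279 genes passed, and 4.44% had an unadjusted p under 0.05). The gene that passed in OPC was Fosb, an immediate early gene (-1.30 ± 0.21, adjusted p = 7.6e-06), and DESeq2 called 0. The Fosb call was lost without the 3 mice that stood apart, without control mouse 2 and without high fat diet mouse 6.

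Endothelial barcodes made up 2.78 ± 1.88% of the kept barcodes under control chow (SD, n = 7) and 2.17 ± 1.90% under the high fat diet (n = 7), a difference of -0.606 points with an exact two-sided permutation p of 0.54. Each mouse had the same weight, and the highest share in each diet came from few barcodes. Control mouse 7 held 14 of 217 (6.45%) and high fat diet mouse 7 held 3 of 49 (6.12%). The lowest control share was 1 of 149 (control mouse 6). Within pool 1 the difference was -0.834 points (exact p = 0.457) and within pool 2 it was -0.303 (exact p = 0.80, where 3 against 3 mice cannot go below 0.10).

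Along the vessel tree, 72 endothelial barcodes held an artery marker and no vein marker, and 33 held a vein marker and no artery marker. A further 20 held both and 181 neither. The artery list held Gkn3, Mgp, Bmx, Sema3g, Efnb2, Gja4 and others, and the vein list Vcam1, Icam1, Nr2f2, Lcn2, Il1r1 and others. A single UMI of a marker was enough. Several markers were read in other classes. Endothelial and mural levels were 1586 and 1183 CPM for Mgp, 41.1 and 559 for Gja4, and 75.8 and 437 for Nr2f2. Vcam1 read 540 CPM in endothelial barcodes and 301 in astrocytes. Gkn3, Bmx, Sema3g, Icam1 and Lcn2 held 0 mural UMIs. Because 2 mice alone had at least 5 of each kind, no test was made, and the values below are sums with 95% counting intervals. Slc38a5 read 813 CPM in vein-marked and 55.2 in artery-marked barcodes (34 and 4 UMIs), a ratio of 14.7 (5.26 to 57.2), and was higher in vein-marked barcodes in 9 of 10 mice with both kinds. Slco1a4 read 2.05 times higher (1.63 to 2.57; 9 of 10 mice), Abcg2 2.01 times (1.39 to 2.93; 8 of 10) and Abcb1a 1.73 times (1.35 to 2.22; 8 of 10). Ratios of Slc2a1 (1.04), Slco1c1 (1.17), Mfsd2a (1.21), Slc7a5 (3.47) and Cldn5 (0.717) had intervals that included 1. Control mice 2 and 7 and high fat diet mouse 2 had 1 vein-marked barcode each, which limits the counts of mice given here. Slc16a1 read 6.36 times higher in vein-marked barcodes (2.98 to 15.1), but in 4 of 10 mice. Control mice 2, 5 and 7 held 0 Slc16a1 UMIs in both kinds and so show no direction. Of the 33 vein-marked Slc16a1 UMIs, 18 came from high fat diet mouse 5, and without that mouse the ratio was 3.36. By diet, Slc16a1 had 2 UMIs in 19 vein-marked barcodes of control mice (92.2 CPM) and 31 in 14 of high fat diet mice (1542 CPM), of which 10 came from mouse 4 and 18 from mouse 5. Artery-marked barcodes held 4 Slc16a1 UMIs in control (85.1 CPM) and 5 in high fat diet mice (196 CPM). Without high fat diet mouse 5 the ratio for Slc38a5 was 11.6 and that for Slco1a4 was 1.70. Barcodes with neither marker read 3980 CPM of Slco1a4, against 4067 in vein-marked and 1986 in artery-marked barcodes. In the same order Abcb1a read 2793, 3182 and 1835 CPM, Abcg2 1322, 1555 and 772, and Slc16a1 634, 789 and 124. These genes thus lay nearer their vein-marked level there, while Slc38a5 read 297 CPM, between its vein-marked and artery-marked levels. The barcodes with neither marker held a median of 679 UMIs, against 1072 in vein-marked and 874 in artery-marked barcodes. Whether a marker was missed in some of them was not tested. A ratio above 1 is not taken here to mark a gene as particular to veins.

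**Figure D4:**
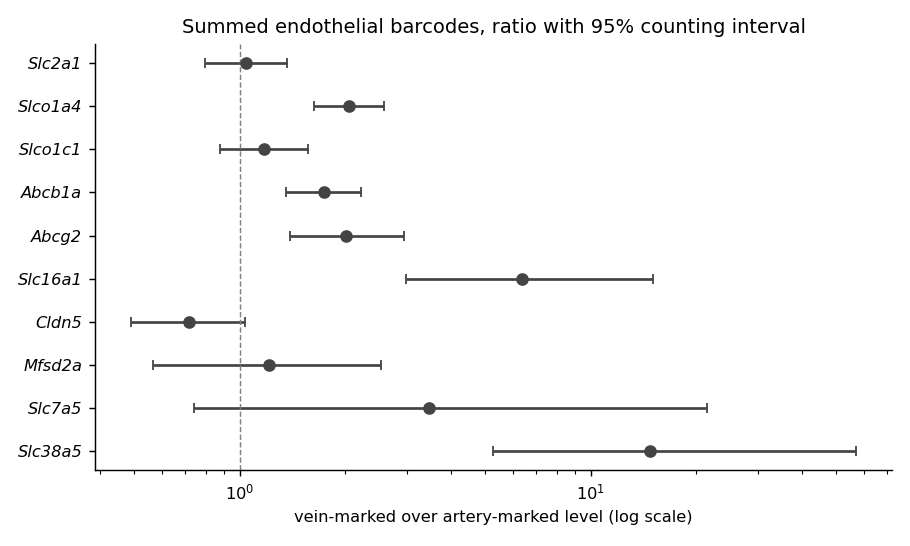
Ratio of the level in vein-marked to that in artery-marked endothelial barcodes for each of the 10 genes (logarithmic axis), with 95% counting intervals from summed UMIs and a dashed line at 1. Slc38a5 (14.7), Slc16a1 (6.36), Slco1a4 (2.05), Abcg2 (2.01) and Abcb1a (1.73) lie above 1 with their whole interval, which covers counting error and not the spread between mice.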

How the data were processed

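Drop-seq counts of 14 mice were used (7 control, 7 high fat diet, 1 library a mouse). The values are UMI counts per gene and barcode as the authors deposited them, whole and not normalized. Per the submitters' processing notes, the tools were STAR 2.4.2a, Picard 2.2.4 and bcl2fastq 2.18.0.12 with the mm10 (GRCm38) build. Neither the counting tool nor its use of strand is given in the sources used here.

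Barcodes were kept at 500 UMIs, 300 genes and at most 20% mitochondrial UMIs. Classes came from marker lists that hold none of the 10 genes: at least 3 UMIs from 2 markers, at a share above 3 times that of the mouse (1 time for oligodendrocytes and neurons), on 1 list alone. These multiples were set from the list shares after the tables were seen. Barcodes on several lists were left out, and removal of doublets called by Scrublet in 11 mice (214 of the kept barcodes, 1.39%) was an alternative. Raw UMIs were summed per mouse and class (at least 10 barcodes) and tested in edgeR 4.0.16 (R 4.3.3; TMM, robust quasi-likelihood F test) on genes with at least 20 UMIs, adjusted over all genes at 0.05; class fits held the mouse as a block and diet fits the pool. The SE of a fitted log2 difference was back-calculated as its absolute value over the square root of the F statistic. Intervals of fitted differences are 95% normal intervals from that SE. The OPC comparisons were added after the data were seen. Mice were numbered within a diet in accession order, so numbers pair no animals. Shares were thinned to 500 UMIs (seed 1), counting intervals are exact at 95%, cover counting error only, and a count of 0 was set to 3 UMIs over the class. Likeness used log2(CPM + 10) over genes with 100 UMIs. Gene positions are from GENCODE M21. The 10 genes and all lists were chosen with earlier results of these data known. Named genes are the 10, the 4 smallest p-values of each wider list between endothelial and mural barcodes (in part), the nearest gene in likeness, and a gene that passed a diet test. In counts simulated for the endothelial diet fit (3288 genes, 200 of them changed), 67.3% of 4-fold and 9.68% of 2-fold changes were recovered, and 4.71% of calls were false. The simulated mice shared a common profile apart from these changes, with no pool effect and no mice that stood apart. Recovery in the data, where 1 gene passed, can therefore be lower. DESeq2 1.42.0 was an alternative.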

Additional observations from a re-analysis of the deposited data

Results flagged for a closer look

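In groups of 4 to 10 mice, a mouse was noted where its gap to the nearest other exceeded Dixon's 95% critical value. Of 40 groups of the 10 genes in endothelial, astrocyte, OPC and oligodendrocyte sums, 5 had such a mouse, and chance alone gives about 1 in 20. Control mouse 5 had the highest endothelial Slc2a1 level, 4316 CPM, against 1138 to 2078 in the other 5 control mice; it rests on 283 UMIs, of which a single barcode held 63 (22.3%), and without that barcode the level was 4238. The same mouse had the lowest endothelial Slco1c1 level among control mice, 1586 CPM (104 UMIs), against 1916 to 2102. Control mouse 7 had the highest astrocyte Slc2a1 level, 530 CPM on 10 UMIs, against 116 to 228. Control mouse 6 had the highest oligodendrocyte Abcg2 level, 46.2 CPM on 2 UMIs, against 2.39 to 21. High fat diet mouse 7 had the highest oligodendrocyte Mfsd2a level, 87.9 CPM on 5 UMIs, against 6.92 to 17.8.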

How the results depend on the processing

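Counts of genes that passed between classes moved by more than 1.5 times under edgeR's own filter on low counts (1577 or 1750 genes tested) for every comparison: 554 for endothelial against mural, 1161 against astrocytes, 1166 against oligodendrocytes, 1200 for astrocytes and 909 for mural barcodes against oligodendrocytes, and 1285, 991 and 1206 for OPC against oligodendrocytes, astrocytes and endothelial barcodes. DESeq2 called 879 (endothelial against mural), 3883 (endothelial against oligodendrocytes) and 2672 (mural against oligodendrocytes); the last was 2390 with DESeq2 size factors in edgeR and 2345 with library size. Without the mouse block, endothelial against mural gave 1415 genes against 1547 with it. Replicate numbers pair no mice across diets, so no paired diet fit was made. Library size in place of TMM moved the median of all genes by -0.38 to 1.40 between classes, the largest for mural against oligodendrocytes.

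Diet calls in endothelial sums (1 gene) were 0 under DESeq2, edgeR's filter, either pool alone and with barcodes of both vessel lists, 2 with library size and without the limit on Snap25 and Syt1, 3 without a filter and with the stricter gate, 4 without the mice that stood apart and with sums of 5 barcodes, and 0 to 4 without 1 mouse. In mural sums (0) they were 2 without a filter, and 1 without the mice that stood apart or with sums of 5 barcodes. In astrocytes (0) they were 1 without the Snap25 and Syt1 limit. In OPC (1) they were 2 without a filter, 0 to 4 without 1 mouse, and 0 under DESeq2, edgeR's filter, 1000 UMIs a barcode, either pool, and without the mice that stood apart.

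Signs turned for the values below, none of which passed the threshold with either sign, and the cause was not tested. Mfsd2a between endothelial barcodes and astrocytes was 0.39 with library size, 0.089 with edgeR's filter, 0.052 without called doublets, 0.058 with both-list barcodes and -0.11 to 0.17 without 1 mouse. In the endothelial diet fit, Slco1c1 was -0.18 without a filter, -0.063 with the stricter gate, -0.13 without the Snap25 and Syt1 limit, -0.17 without the mice that stood apart, -0.20 with both-list barcodes, -0.029 without the pool term, -0.16 in pool 2, -0.10 with sums of 5 barcodes and -0.18 to 0.20 without 1 mouse. Cldn5 was 0.017 with library size, 0.036 with edgeR's filter, 0.0079 without the mice that stood apart, 0.10 without the pool term, 0.26 in pool 2 and -0.38 to 0.22 without 1 mouse. Slc38a5 was 0.0027 under DESeq2, 0.038 with its size factors, 0.11 with library size, 0.014 without called doublets, 0.59 in pool 1 and -0.58 to 0.26 without 1 mouse. In pool 1 alone Slc2a1 was 0.20, Slco1a4 0.00028 and Abcg2 0.15. In astrocytes Slc16a1 was 0.050 without the mice that stood apart and -0.48 to 0.25 without 1 mouse, and Mfsd2a 0.21 in pool 1. A floor of 1000 UMIs could not be fitted for the class levels or for the diet in endothelial, mural and astrocyte sums, nor could pool 1 alone for mural sums or the artery against vein fit. Few endothelial UMIs, 53 for Slc7a5, 94 for Mfsd2a and 98 for Slc38a5, limit those values.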

Other observations

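OPC were split by their markers after the values were seen, as a description. Mfsd2a read 344 CPM in 132 barcodes with Pdgfra and no Gpr17 UMI (counting interval 256 to 454), 570 CPM in 62 with Gpr17 and no Pdgfra UMI (413 to 768), and 406 CPM in 263 with both (343 to 476). Pdgfra marks precursors, and Gpr17 precursors that have begun to differentiate. Over mice with at least 5 such barcodes the levels ran from 97.9 to 716 CPM in 9 mice and from 153 to 1190 CPM in 6 mice, so that the ranges overlapped.

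A single barcode met the ependymal list, in control mouse 1, with 31739 UMIs and 51 UMIs of Slco1c1. Of the 7 markers on that list it held 2 UMIs of Rarres2, 1 of Foxj1 and 4 of Dynlrb2, while Ccdc153, Tmem212, Rax and Col23a1 were at 0, so the barcode is given no cell type here.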
